A study of Homo sapiens with 15 samples.

Results

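Genes of cholesterol and fatty acid synthesis were followed through 29 members chosen by gene symbol, and 28 of them were measured among the 12995 genes of the deposited tables. They comprised 7 enzymes of the mevalonate branch (HMGCS1, MVK, PMVK, MVD, IDI1, FDPS and ACAT2), 11 enzymes of the sterol branch (FDFT1, SQLE, LSS, CYP51A1, TM7SF2, MSMO1, NSDHL, HSD17B7, EBP, SC5D and DHCR7), 4 regulators (INSIG1, SREBF1, SREBF2 and STARD4) and 7 enzymes of fatty acid synthesis (ACLY, ACACA, FASN, ELOVL6, SCD, FADS1 and FADS2). HSD17B7, which encodes a sterol reductase, was not analysed here.

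The libraries were QuantSeq 3′ mRNA-seq FWD libraries, 15 in 5 groups of 3. OKF6 is a line of normal oral cells and was wild type. SCC15 and SCC25 are oral cancer lines that had been transduced with lentiviral constructs for CRISPR-Cas9 deletion of YBX1, a gene for a cold-shock domain protein that binds DNA and RNA, and sorted as pools positive for GFP and mCherry. Without doxycycline these cells were labelled wild type (SCC15 +YBX1 and SCC25 +YBX1). With doxycycline at 1 µg/mL for 3 days they were labelled YBX1 knockout (SCC15 -YBX1 and SCC25 -YBX1). Every -YBX1 library had doxycycline and no +YBX1 library did. Effects of doxycycline, of Cas9 cutting and of YBX1 loss thus cannot be told apart. Serum was present only in the culture of SCC15 (DMEM with foetal bovine serum). The medium of OKF6 and SCC25 was a serum-free one for keratinocytes, with added pituitary extract, EGF and calcium. Effects of line, of serum and of the rest of the medium thus cannot be told apart in any comparison with SCC15. Both cancer lines carried the constructs and OKF6 was labelled wild type. Effects of line and of the constructs and sorting thus cannot be told apart in any comparison with OKF6. In the comparisons of lines below, SCC15 and SCC25 stand for their +YBX1 libraries. The labels do not say whether replicates came from separate cultures, and p-values measure the spread between these libraries alone.

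Cells make cholesterol from acetyl-CoA through mevalonate, isoprenoid units, squalene and lanosterol, and they make fatty acids from acetyl-CoA by chain building, elongation and desaturation. Both branches are switched on by the sterol regulatory element-binding proteins (SREBPs), which SREBF1 and SREBF2 encode. When sterols are plentiful, INSIG proteins hold the SREBP precursors in the endoplasmic reticulum, and when sterols are scarce the precursors are cut and enter the nucleus. Lipids taken up from serum and lipids made in the cell feed the same sterol pool. In stratified epithelium these lipids serve membranes and the permeability barrier.

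SREBPs act at promoters together with the CCAAT-binding factor NF-Y and with Sp1, so the 250 bases before the listed start were scanned for 4 motifs on both strands in the 24 measured members that had an entry in the RefSeq promoter table (GRCh38.p14). The NF-Y motif CCAAT was held by 18 of the 24 members, against 41.8% of the 10053 tested genes with an entry and 32% of all 35116 promoters. The Sp1 motif GGGCGG was held by 23 of 24, against 75.7% of tested genes and 42.6% of all promoters. The sterol element TCACNCCAC was held by 1 of 24 (SREBF2), against 1.2% of tested genes and 0.883% of all promoters, and the E-box CACGTG by 2 of 24 (INSIG1 and SC5D), against 11.3% and 6.34%. A gene with several listed starts counted once where any of them held the motif. These matches describe the letters in the window and were not tested as binding sites.

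Of the 8 members that separated the 3 lines without overlap in the order OKF6, SCC25, SCC15, 6 are printed as the genes in which the lines differed in every library, and SREBF2 is added as the member with the sterol element. Each line runs 5′ to 3′ on the gene's strand and ends at the base before the listed start, with matches to the NF-Y, Sp1 and sterol element motifs on either strand in capitals. No match overlapped another in these windows. The windows lay at chr5:43313413-43313662 (minus strand) for HMGCS1 (the upstream one of 2 listed starts), chr4:165327419-165327668 (plus strand) for MSMO1, chr7:92134478-92134727 (minus strand) for CYP51A1, chr17:17836987-17837236 (minus strand) for SREBF1, chr5:111512536-111512785 (minus strand) for STARD4, chr10:100346983-100347232 (plus strand) for SCD and chr22:41832855-41833104 (plus strand) for SREBF2.
HMGCS1: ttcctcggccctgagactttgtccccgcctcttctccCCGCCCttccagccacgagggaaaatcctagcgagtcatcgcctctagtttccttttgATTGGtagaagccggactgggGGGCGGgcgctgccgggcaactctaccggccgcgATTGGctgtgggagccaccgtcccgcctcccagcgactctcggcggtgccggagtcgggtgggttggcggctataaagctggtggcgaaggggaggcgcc
MSMO1: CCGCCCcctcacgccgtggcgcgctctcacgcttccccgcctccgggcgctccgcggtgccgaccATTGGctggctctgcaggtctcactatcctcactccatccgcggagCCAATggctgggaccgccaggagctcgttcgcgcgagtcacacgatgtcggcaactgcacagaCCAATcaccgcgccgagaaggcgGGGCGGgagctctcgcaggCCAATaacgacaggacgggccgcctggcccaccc
CYP51A1: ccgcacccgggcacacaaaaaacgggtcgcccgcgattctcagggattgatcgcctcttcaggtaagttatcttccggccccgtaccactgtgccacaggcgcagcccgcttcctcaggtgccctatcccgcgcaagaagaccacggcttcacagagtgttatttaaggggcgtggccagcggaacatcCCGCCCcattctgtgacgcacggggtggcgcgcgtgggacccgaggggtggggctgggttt
SREBF1: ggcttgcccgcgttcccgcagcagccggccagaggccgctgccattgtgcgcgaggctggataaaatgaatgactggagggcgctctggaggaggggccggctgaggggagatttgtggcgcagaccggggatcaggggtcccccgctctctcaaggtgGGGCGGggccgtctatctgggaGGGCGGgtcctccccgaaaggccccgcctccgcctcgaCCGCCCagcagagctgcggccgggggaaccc
STARD4: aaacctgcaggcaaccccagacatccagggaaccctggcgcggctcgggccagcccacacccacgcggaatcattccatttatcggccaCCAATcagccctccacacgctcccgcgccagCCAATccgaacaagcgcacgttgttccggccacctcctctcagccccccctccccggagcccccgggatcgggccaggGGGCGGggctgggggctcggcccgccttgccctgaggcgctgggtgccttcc
SCD: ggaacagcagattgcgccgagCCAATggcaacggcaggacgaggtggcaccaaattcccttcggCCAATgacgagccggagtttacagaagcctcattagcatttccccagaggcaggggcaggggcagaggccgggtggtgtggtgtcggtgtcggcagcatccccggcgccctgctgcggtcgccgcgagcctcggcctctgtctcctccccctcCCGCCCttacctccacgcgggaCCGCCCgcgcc
SREBF2: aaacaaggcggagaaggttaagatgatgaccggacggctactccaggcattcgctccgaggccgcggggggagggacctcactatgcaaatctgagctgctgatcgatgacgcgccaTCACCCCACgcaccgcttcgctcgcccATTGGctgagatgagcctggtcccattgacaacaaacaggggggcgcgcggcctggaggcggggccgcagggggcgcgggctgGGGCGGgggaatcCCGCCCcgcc
MSMO1 held 4 CCAAT matches, and HMGCS1, STARD4 and SCD held 2 each. CYP51A1 and SREBF1 held no CCAAT in this window, and SREBF1 held 3 GGGCGG matches. SREBF2 held 1 CCAAT, 2 GGGCGG and 1 sterol element.

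Reads counted on genes ranged from 4075290 to 6118501 per library, where a single read is worth 0.138 to 0.226 CPM, counts scaled to a fixed total per library, and 21 of the 28 members had more than 100 reads in every library. The lowest count was 11 reads, for STARD4 in SCC15 -YBX1 replicate 3. OKF6 replicate 1 stood apart from its group, where chi-square divided by its degrees of freedom was 82.5 and 84.6 against the other OKF6 libraries, which differed from each other by 26.8. SCC15 -YBX1 replicate 1 likewise gave 29.3 and 29.1 against the other 2 libraries of its group, which differed by 4.06. SCC25 -YBX1 replicate 2 stood apart by interferon response genes (median 7.80 log2 CPM over 14 genes, against 5.67 and 4.70). The 15 keratinocyte markers summed to 14.85 to 15.28 log2 CPM in OKF6 and 13.83 to 14.69 in SCC25 but to 6.82 to 7.20 in SCC15, where 3 of the 15 (TP63, KRT15 and DSG3) had at most 3 reads in each library, while DSP had 608, 513 and 531 reads and DSC3 84, 110 and 99. The part of these features in the results below was not tested.

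**Figure D1:**
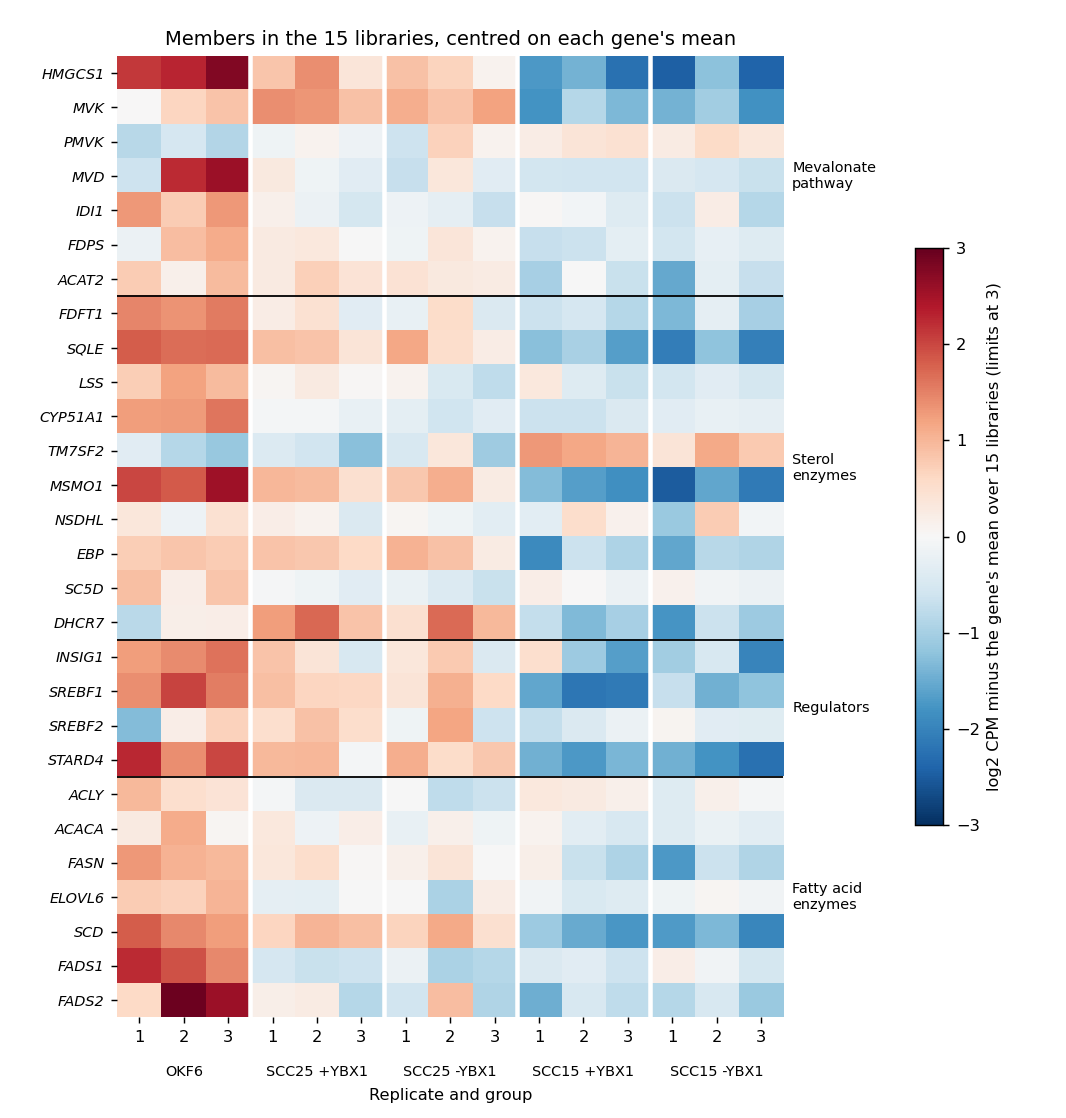
Each row is a member, each column 1 of the 15 libraries in 5 groups of 3, and the colour is log2 CPM minus the gene's mean over the 15 libraries, on a scale limited to 3 in either direction. HMGCS1, MSMO1, SREBF1, STARD4 and SCD run from red in OKF6 to blue in SCC15, PMVK and TM7SF2 run the other way, and OKF6 replicate 1 differs from the other OKF6 columns in MVD, FADS2, SREBF2 and DHCR7.

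More synthesis genes were lower than higher in each cancer line against OKF6. In SCC15, 22 of 28 members were lower than in OKF6 in limma with p-values adjusted by Benjamini-Hochberg across the whole table (under 0.05), that is 78.6% of members against 23.4% of all genes, and 2 were higher (7.14% against 26.9%). In SCC25, 14 were lower than in OKF6 (50% against 11.3%) and 2 were higher (7.14% against 18.9%). Between the cancer lines 12 members were lower in SCC15 than in SCC25 (42.9% against 23.6%) and 2 were higher (7.14% against 20%). The median log2 change of members was -1.70 for SCC15 against OKF6, -0.89 for SCC25 against OKF6 and -0.76 for SCC15 against SCC25, while the medians of all genes were 0.10, 0.13 and -0.01. The comparisons with OKF6 share its 3 libraries, and each cancer line enters a pair of comparisons. Without OKF6 replicate 1 the lower members numbered 23, 15 and 15 in the same order of comparisons. Without SCC25 replicate 3 the lower members of SCC25 against OKF6 numbered 9. The shares of all genes called with a library left out are not given here. A change in these counts is thus not read as one of the members alone. Since a library averages a culture, fewer expressing cells and less RNA per cell cannot be told apart.

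By role, the 4 genes grouped as regulators, which include the sterol carrier STARD4, had the lowest medians. These were -2.79 for SCC15 against OKF6, -1.06 for SCC25 against OKF6 and -1.61 for SCC15 against SCC25. The mevalonate enzymes had medians of -1.26, -0.42 and -0.75 in the same order, the sterol enzymes -1.58, -0.84 and -0.62, and the fatty acid enzymes -1.58, -0.94 and -0.35. Of the 7 fatty acid enzymes, 5 were lower than OKF6 in SCC15 and 4 in SCC25, where 23.4% and 11.3% of all genes were lower. For SCC25 against OKF6 the 4 genes grouped as regulators ran from -1.25 (STARD4) to 0.76 (SREBF2), and 2 were called lower. Their median there lay close to that of the fatty acid enzymes.

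**Figure D2:**
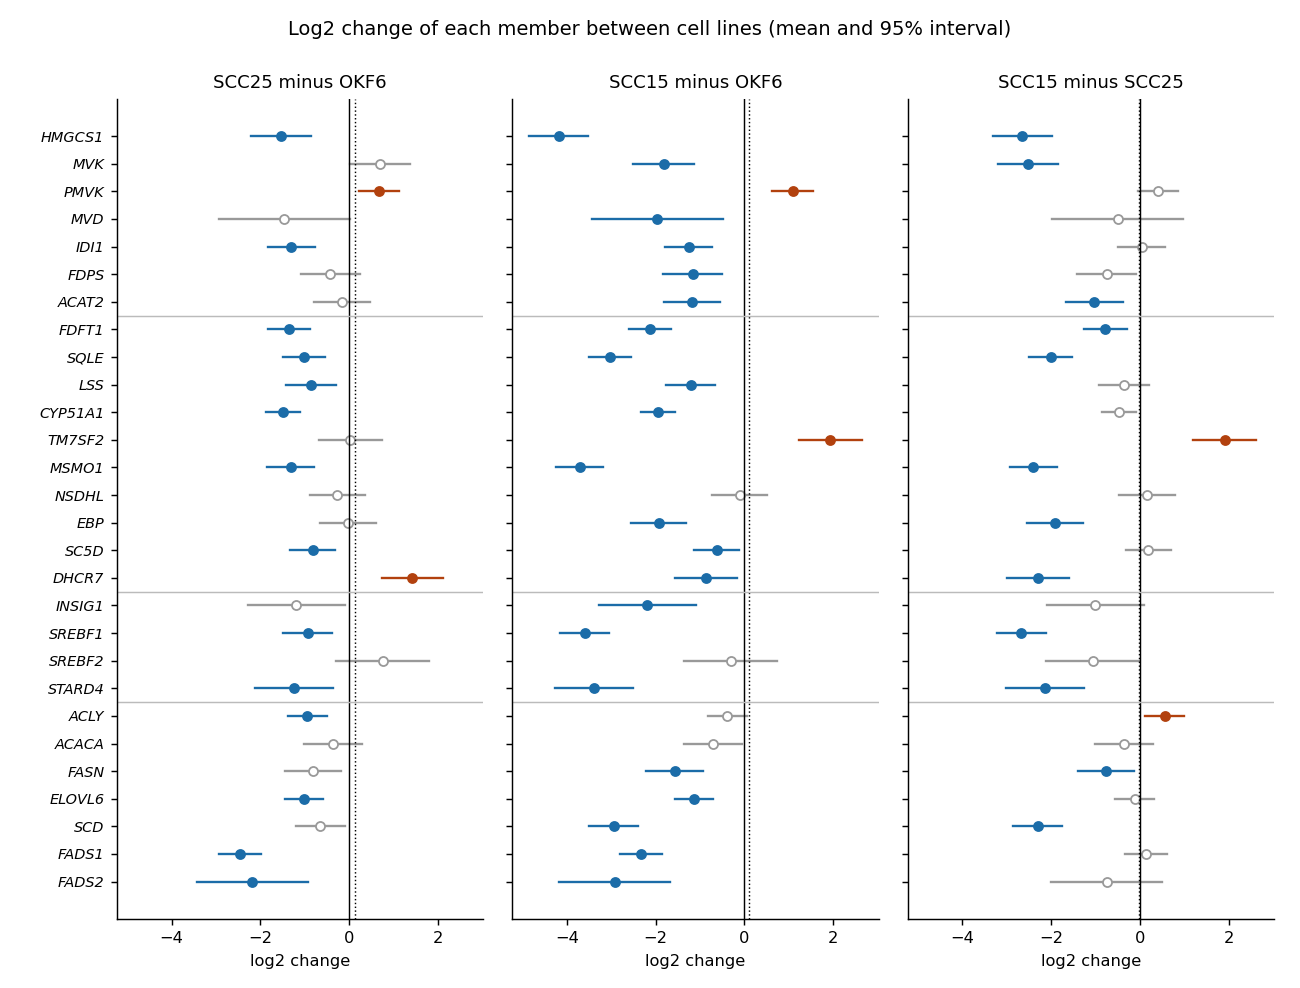
Points give the log2 change of each member for SCC25 minus OKF6, SCC15 minus OKF6 and SCC15 minus SCC25, with bars for the 95% interval of limma, filled blue where lower and filled orange where higher at an adjusted p under 0.05, and open where not called. The dotted line marks the median of all 12995 genes, and in the middle panel 22 members lie to its left as filled points.

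HMGCS1, the synthase that makes HMG-CoA at the entry of the mevalonate branch, read 9.74, 9.91 and 10.41 log2 CPM in OKF6, 8.45, 9.02 and 7.99 in SCC25, and in SCC15 5.91, 6.198 and 5.39. The 3 lines did not overlap, and the level fell by steps from OKF6 to SCC25 to SCC15. HMGCS1 was 2.90-fold lower in SCC25 than in OKF6 (log2 change -1.53 ± 0.30, adjusted p = 0.00364). In SCC15 it was 18.2-fold lower than in OKF6 (log2 change -4.19 ± 0.30, adjusted p = 1.13e-06) and 6.299-fold lower than in SCC25 (log2 change -2.66 ± 0.30, adjusted p = 4.02e-05), and the first of these was the largest decrease of any member in any comparison of lines.

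MVK, the kinase that phosphorylates mevalonate, read 5.05, 5.67 and 5.90 log2 CPM in OKF6, 6.43, 6.36 and 5.92 in SCC25, and in SCC15 3.26, 4.19 and 3.70. Its lowest libraries were those of SCC15, and SCC25 lay above OKF6 with a narrow gap. MVK was 3.54-fold lower in SCC15 than in OKF6 (log2 change -1.82 ± 0.31, adjusted p = 0.000538) and 5.73-fold lower than in SCC25 (log2 change -2.52 ± 0.31, adjusted p = 6.85e-05), while SCC25 against OKF6 did not pass (log2 change 0.70 ± 0.31, adjusted p = 0.112). PMVK, which acts on the product of MVK, went the other way, at 4.39, 4.72 and 4.34 log2 CPM in OKF6, 5.09, 5.33 and 5.06 in SCC25 and 5.43, 5.60 and 5.67 in SCC15. It was higher than in OKF6 in SCC15 (log2 change 1.08 ± 0.21, adjusted p = 0.0013) and in SCC25 (log2 change 0.68 ± 0.21, adjusted p = 0.0321). The second call was lost in 7 of 17 alternative settings, among them leaving out OKF6 replicate 3, any SCC25 library or SCC15 replicate 2 or 3 (log2 change 0.59 to 0.73).

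IDI1, the isomerase that makes the allylic isoprenoid unit, read 6.90, 6.37 and 6.91 log2 CPM in OKF6, 5.76, 5.44 and 5.08 in SCC25, and in SCC15 5.64, 5.53 and 5.23. Both cancer lines lay below OKF6 and overlapped each other. The log2 change was -1.30 ± 0.24 in SCC25 (adjusted p = 0.00263) and -1.26 ± 0.24 in SCC15 (adjusted p = 0.00124). FDPS, the farnesyl diphosphate synthase, and ACAT2, which makes acetoacetyl-CoA, were lower in SCC15 than in OKF6 (log2 change -1.16 and -1.18) and did not pass in SCC25 (-0.42 and -0.15), although FDPS passed when OKF6 replicate 1 was left out (log2 change -0.81). ACAT2 was also lower in SCC15 than in SCC25 (log2 change -1.02 ± 0.29, adjusted p = 0.0142), a call lost in 3 of 17 alternative settings, each of which left out SCC25 replicate 2 or SCC15 replicate 1 or 3 (log2 change -0.97 to -0.80). FDPS did not pass there (log2 change -0.75 ± 0.30, adjusted p = 0.0676) and passed when OKF6 replicate 1 was left out (log2 change -0.75). On the opposite strand TCP1 overlaps the last exonic bases of ACAT2 and RUSC1-AS1 those of FDPS. Reads of these genes may thus be shared where counting ignored the strand. FDPS also has 8 named pseudogenes in GENCODE v44 and IDI1 has 3, so reads of FDPS and IDI1 are uncertain as well.

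MVD, the decarboxylase of the branch, rested on the split of OKF6. It read 3.44, 6.28 and 6.62 log2 CPM in OKF6, where replicate 1 lay at the level of the cancer lines. SCC25 had 4.34, 3.91 and 3.70, and 3.51, 3.47 and 3.48 were the values of SCC15. The log2 change was -1.96 ± 0.67 for SCC15 against OKF6 (adjusted p = 0.031) and -1.46 ± 0.67 for SCC25 (adjusted p = 0.124). Without OKF6 replicate 1 these changes were -2.97 and -2.47, and both passed. The SCC15 call was lost in 7 of 17 alternative settings, among them leaving out OKF6 replicate 2 or 3 or any SCC15 library (log2 change -1.97 to -1.38).

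In the sterol branch, FDFT1, the squalene synthase, read 9.16, 9.03 and 9.23 log2 CPM in OKF6, 7.90, 8.13 and 7.35 in SCC25, and in SCC15 7.03, 7.18 and 6.82. SQLE, the epoxidase that follows it, read 8.44, 8.31 and 8.32 log2 CPM in OKF6, 7.54, 7.48 and 7.01 in SCC25, and in SCC15 5.38, 5.64 and 4.97. In both genes the 3 lines formed separate groups, with OKF6 highest and SCC15 lowest. FDFT1 was 2.55-fold lower in SCC25 than in OKF6 (log2 change -1.35 ± 0.22, adjusted p = 0.00113) and 4.38-fold lower in SCC15 (log2 change -2.13 ± 0.22, adjusted p = 1.34e-05). SQLE was 2.02-fold lower in SCC25 than in OKF6 (log2 change -1.02 ± 0.22, adjusted p = 0.00561) and 8.16-fold lower in SCC15 (log2 change -3.03 ± 0.22, adjusted p = 1.08e-06). Between the cancer lines SQLE was 4.04-fold lower in SCC15 (log2 change -2.01 ± 0.22, adjusted p = 2.69e-05), and FDFT1 1.72-fold lower (log2 change -0.78 ± 0.22, adjusted p = 0.014), a call lost in 4 of 17 alternative settings, among them leaving out SCC25 replicate 1 or 2 or SCC15 replicate 3 (log2 change -0.73 to -0.61).

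MSMO1, the methylsterol oxidase that removes methyl groups from lanosterol products, read 8.98, 8.82 and 9.52 log2 CPM in OKF6, 7.99, 7.92 and 7.48 in SCC25, and in SCC15 5.70, 5.34 and 5.16. CYP51A1, the lanosterol demethylase that acts before it, read 7.63, 7.65 and 7.99 log2 CPM in OKF6, 6.33, 6.33 and 6.16 in SCC25, and in SCC15 5.75, 5.74 and 5.95. MSMO1 dropped in large steps along both cancer lines, whereas the CYP51A1 libraries of SCC25 and SCC15 were close to each other and far from OKF6. MSMO1 was 2.48-fold lower in SCC25 than in OKF6 (log2 change -1.31 ± 0.24, adjusted p = 0.00242), 13.1-fold lower in SCC15 than in OKF6 (log2 change -3.71 ± 0.24, adjusted p = 5.97e-07) and 5.28-fold lower in SCC15 than in SCC25 (log2 change -2.40 ± 0.24, adjusted p = 1.51e-05). CYP51A1 was 2.80-fold lower in SCC25 than in OKF6 (log2 change -1.48 ± 0.17, adjusted p = 0.000146) and 3.85-fold lower in SCC15 (log2 change -1.95 ± 0.17, adjusted p = 5e-06), and the cancer lines differed by -0.46 ± 0.17 (adjusted p = 0.0517), which passed when any OKF6 library was left out (log2 change -0.46). Reads of CYP51A1 are uncertain, since 2 unnamed genes overlap its last exonic bases on the same strand and it has 3 named pseudogenes in GENCODE v44.

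DHCR7, the reductase of the last step to cholesterol, did not follow this order. It read 7.23, 8.21 and 8.24 log2 CPM in OKF6, 9.31, 9.77 and 8.90 in SCC25, and in SCC15 7.34, 6.72 and 7.04. SCC25 lay above all other libraries. DHCR7 was 2.70-fold higher in SCC25 than in OKF6 (log2 change 1.43 ± 0.32, adjusted p = 0.00659) and 4.89-fold lower in SCC15 than in SCC25 (log2 change -2.29 ± 0.32, adjusted p = 0.000165). SCC15 against OKF6 gave -0.86 ± 0.32 (adjusted p = 0.042), with overlapping libraries, and this call was lost in 10 of 17 alternative settings, among them leaving out OKF6 replicate 2 or 3, SCC25 replicate 1 or SCC15 replicate 2 or 3 (log2 change -0.86 to -0.69).

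TM7SF2, a sterol reductase, was like PMVK highest in SCC15, at 5.52, 5.39 and 5.25 log2 CPM against 3.89, 3.36 and 3.09 in OKF6 and 3.81, 3.64 and 2.96 in SCC25. No SCC15 library overlapped the others, and the gene was 3.83-fold higher than in OKF6 (log2 change 1.94 ± 0.32, adjusted p = 0.000482) and 3.76-fold higher than in SCC25 (log2 change 1.91 ± 0.32, adjusted p = 0.000674). EBP, the sterol isomerase, gave -0.02 for SCC25 against OKF6 (95% interval -0.65 to 0.60) and was 3.83-fold lower in SCC15 than in OKF6 (log2 change -1.94 ± 0.28, adjusted p = 0.000187). LSS, the lanosterol synthase, was lower than in OKF6 in SCC25 (-0.85, adjusted p = 0.027) and in SCC15 (-1.22, adjusted p = 0.00216). SC5D, the sterol desaturase, gave -0.82 (adjusted p = 0.0217) and -0.63 (adjusted p = 0.0417), and NSDHL, a sterol dehydrogenase, did not pass in any comparison (log2 changes from -0.27 to 0.16). An unnamed gene overlaps the last exonic bases of EBP on the same strand, so its reads are uncertain. The SCC25 call of LSS was lost in 6 of 17 alternative settings, among them leaving out OKF6 replicate 2 or 3 or any SCC25 library (log2 change -0.93 to -0.73). The SCC25 call of SC5D was lost in 3 of 17 alternative settings, each of which left out OKF6 replicate 3 or SCC25 replicate 2 or 3 (log2 change -0.84 to -0.72), and its SCC15 call was lost in 11 of 17 alternative settings, among them leaving out OKF6 replicate 1 or 3, any SCC25 library or SCC15 replicate 2 or 3 (log2 change -0.63 to -0.50). Between the cancer lines LSS passed when SCC15 replicate 1 was left out (log2 change -0.64).

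Among the regulators, SREBF1 read 6.44, 7.08 and 6.58 log2 CPM in OKF6, 5.95, 5.69 and 5.67 in SCC25, and in SCC15 3.49, 2.87 and 2.93. SREBF2 read 2.23, 3.72 and 4.22 log2 CPM in OKF6, 4.02, 4.39 and 4.05 in SCC25, and in SCC15 2.81, 3.09 and 3.36. The SREBF1 libraries of SCC15 lay far below the others, while those of SREBF2 overlapped between OKF6 and each cancer line but not between SCC25 and SCC15. SREBF1 was 12.2-fold lower in SCC15 than in OKF6 (log2 change -3.61 ± 0.25, adjusted p = 9.66e-07) and 6.37-fold lower than in SCC25 (log2 change -2.67 ± 0.25, adjusted p = 1.04e-05). In SCC25 it was 1.91-fold lower than in OKF6 (log2 change -0.93 ± 0.25, adjusted p = 0.0179), a call lost in 3 of 17 alternative settings, each of which left out OKF6 replicate 2 or SCC25 replicate 2 or 3 (log2 change -0.89 to -0.74). The last exonic bases of SREBF1 overlap RAI1 on the opposite strand, as those of HMGCS1 and LSS overlap unnamed genes, so their reads are uncertain where counting ignored the strand. SREBF2 did not pass in any comparison, and its 95% intervals were -0.28 to 1.81 for SCC25 against OKF6, -1.35 to 0.74 for SCC15 against OKF6 and -2.12 to -0.02 for SCC15 against SCC25 (log2 change -1.07 ± 0.47, adjusted p = 0.0922). OKF6 replicate 1 was the lowest of these libraries for SREBF2, and without it SREBF2 passed for SCC15 against OKF6 (log2 change -0.89) and against SCC25 (log2 change -1.07).

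INSIG1, which retains SREBPs in the endoplasmic reticulum and is itself an SREBP target, read 7.31, 7.49 and 7.70 log2 CPM in OKF6, 6.92, 6.46 and 5.57 in SCC25, and in SCC15 6.56, 4.97 and 4.40. OKF6 was the highest and the most even, and SCC25 and SCC15 each spread over more than 1 log2 unit. INSIG1 was 4.55-fold lower in SCC15 than in OKF6 (log2 change -2.19 ± 0.49, adjusted p = 0.00365). SCC25 against OKF6 (log2 change -1.19 ± 0.49, adjusted p = 0.095) and SCC15 against SCC25 (log2 change -1.002 ± 0.49, adjusted p = 0.126) did not pass, although both passed when SCC15 replicate 1 was left out (log2 change -1.19 and -1.63). STARD4, a carrier that moves sterol between membranes, read 5.28, 4.41 and 5.02 log2 CPM in OKF6, 3.99, 4.02 and 2.96 in SCC25, and in SCC15 1.59, 1.29 and 1.66. Its lines did not overlap, and it was 10.5-fold lower in SCC15 than in OKF6 (log2 change -3.39 ± 0.40, adjusted p = 3.78e-05) and 4.43-fold lower than in SCC25 (log2 change -2.15 ± 0.40, adjusted p = 0.00129). Its call in SCC25 against OKF6 (log2 change -1.25 ± 0.40, adjusted p = 0.0363) was lost in 8 of 17 alternative settings, among them leaving out OKF6 replicate 1 or 3, any SCC25 library or SCC15 replicate 3 (log2 change -1.43 to -0.90).

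SCD, the desaturase that makes oleic acid, read 11.49, 11.11 and 10.93 log2 CPM in OKF6, 10.33, 10.70 and 10.58 in SCC25, and in SCC15 8.59, 8.17 and 7.93. FASN, the fatty acid synthase, read 10.33, 10.08 and 10.00 log2 CPM in OKF6, 9.37, 9.56 and 9.07 in SCC25, and in SCC15 9.22, 8.36 and 8.10. SCD separated the 3 lines, whereas SCC15 replicate 1 of FASN lay within SCC25. SCD was 7.72-fold lower in SCC15 than in OKF6 (log2 change -2.95 ± 0.25, adjusted p = 3.35e-06) and 4.94-fold lower than in SCC25 (log2 change -2.30 ± 0.25, adjusted p = 2.68e-05), and SCC25 against OKF6 did not pass (log2 change -0.64 ± 0.25, adjusted p = 0.0733). FASN was 2.98-fold lower in SCC15 than in OKF6 (log2 change -1.58 ± 0.29, adjusted p = 0.000877), and SCC25 against OKF6 did not pass (log2 change -0.80 ± 0.29, adjusted p = 0.056) although it did in 7 of 17 settings, among them leaving out SCC15 replicate 1 (log2 change -0.80). The FASN difference between SCC15 and SCC25 (log2 change -0.77 ± 0.29, adjusted p = 0.0487) was lost in 9 of 17 alternative settings, among them leaving out OKF6 replicate 3, any SCC25 library or SCC15 replicate 2 or 3 (log2 change -0.91 to -0.54).

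FADS1 and FADS2 encode the desaturases of polyunsaturated fatty acids. They are transcribed from opposite strands of chromosome 11, with spans that overlap in GENCODE v44 and nearest listed starts 599 bases apart. FADS1 read 8.54, 8.22 and 7.74 log2 CPM in OKF6, 5.79, 5.64 and 5.69 in SCC25, and in SCC15 5.87, 5.96 and 5.69. FADS2 read 4.86, 7.21 and 6.84 log2 CPM in OKF6, 4.44, 4.52 and 3.42 in SCC25, and in SCC15 2.81, 3.80 and 3.52. For both genes the cancer lines overlapped each other and lay below OKF6, and OKF6 replicate 1 of FADS2 lay near SCC25. FADS1 was 5.51-fold lower in SCC25 (log2 change -2.46 ± 0.21, adjusted p = 2.41e-05) and 5.02-fold lower in SCC15 (log2 change -2.33 ± 0.21, adjusted p = 6.31e-06) than in OKF6. FADS2 was 4.52-fold lower in SCC25 (log2 change -2.18 ± 0.57, adjusted p = 0.0153) and 7.61-fold lower in SCC15 (log2 change -2.93 ± 0.57, adjusted p = 0.00139), and the first of these calls was lost in 2 of 17 alternative settings, each of which left out OKF6 replicate 3 or SCC25 replicate 3 (log2 change -1.91 to -1.82). Between the cancer lines the 95% interval was -0.34 to 0.61 for FADS1 and -2.01 to 0.51 for FADS2.

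ACLY, which makes cytosolic acetyl-CoA from citrate, was lowest in SCC25, at 8.13, 7.75 and 7.75 log2 CPM against 9.16, 8.70 and 8.61 in OKF6 and 8.50, 8.47 and 8.35 in SCC15. It was lower in SCC25 than in OKF6 (log2 change -0.94 ± 0.20, adjusted p = 0.00533) and higher in SCC15 than in SCC25 (log2 change 0.56 ± 0.20, adjusted p = 0.0421), a call lost in 7 of 17 alternative settings, among them leaving out SCC25 replicate 2 or 3 or any SCC15 library (log2 change 0.50 to 0.60). ELOVL6, the elongase of saturated fatty acids, was lower in SCC25 (-1.01, adjusted p = 0.00329) and SCC15 (-1.13, adjusted p = 0.000638) than in OKF6. ACACA, the acetyl-CoA carboxylase, did not pass in any comparison, with log2 changes of -0.36, -0.71 and -0.35, and for SCC15 against OKF6 it passed when OKF6 replicate 1 or 3 was left out (log2 change -0.93 to -0.82).

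By their means, 18 of 28 members stood in the order OKF6, SCC25, SCC15, as did 19.3% of all genes. In 8 of them (28.6% of members) no library of a line overlapped the next, namely HMGCS1, FDFT1, SQLE, CYP51A1, MSMO1, SREBF1, STARD4 and SCD, against 5.49% of all genes. Each of 3 other orders was held without overlap by 1 member (3.57%), which is few to set against its share of all genes. ACLY stood in the order OKF6, SCC15, SCC25 (1.18% of all genes), MVK in the order SCC25, OKF6, SCC15 (3.2%) and PMVK in the order SCC15, SCC25, OKF6 (5.93%).

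**Figure D3:**
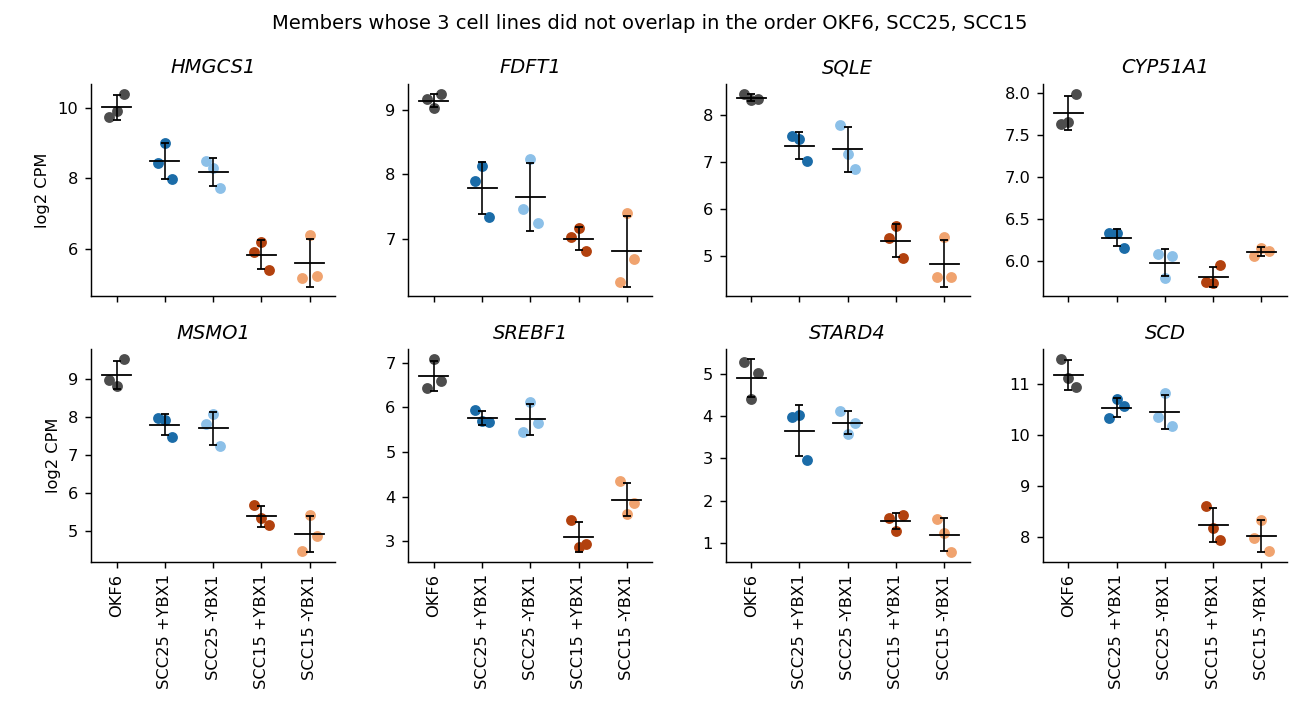
Log2 CPM of the 8 members whose OKF6, SCC25 +YBX1 and SCC15 +YBX1 libraries did not overlap in that order. Points are libraries, horizontal bars the mean of 3 and error bars the SD, in OKF6 and in both cancer lines with and without YBX1. SCC15 lies below SCC25 in 7 panels both with and without YBX1, apart from 1 SCC15 -YBX1 library of FDFT1, and in the CYP51A1 panel the -YBX1 libraries of the lines overlap.

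Genes of the wider pathway were counted against the shares of all genes, which for SCC15 against OKF6 were 23.4% lower and 26.9% higher and for SCC25 against OKF6 11.3% lower and 18.9% higher. The lists are short, and counts near these shares are not read as a result. Of 12 other genes of sterol uptake and intracellular transport, 9 were lower and 1 higher in SCC15 than in OKF6, and 2 were lower and 3 higher in SCC25. Of 9 genes of SREBP processing and turnover, 2 were lower and 1 higher in each cancer line, with INSIG2 in SCC15 at -2.02 ± 0.39 and SCAP, the SREBP escort, at 1.22 ± 0.19. Of 10 other sterol synthesis enzymes, 2 were lower and 4 higher in each cancer line, and of 7 genes of efflux and esterification 1 was lower and 1 higher in SCC15, and 1 was lower and 3 higher in SCC25. Of 19 other fatty acid synthesis genes, 8 were lower and 4 higher in SCC15, with ACSS2, which activates acetate, at -2.67 ± 0.34 and ACACB, a carboxylase tied to the control of oxidation, at 4.44 ± 0.84, the latter from 0 to 7 reads per OKF6 library. In SCC25 5 of the 19 were lower and 3 higher. Of 12 genes of fatty acid activation and glycerolipid synthesis, 5 were lower and 1 higher in SCC15, and 1 was lower and 2 higher in SCC25. Of 15 fatty acid oxidation genes, 8 were higher and 1 lower in SCC15 than in OKF6 (SLC25A20, the mitochondrial acylcarnitine carrier, at 2.99 ± 0.59, from 5 to 7 reads per OKF6 library), and 2 were higher and 2 lower in SCC25. After knockdown 0 of these genes passed in limma in either line.

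In some groups 1 replicate was the lowest or the highest of its group for many members. The counts given here are among the more skewed. Others lay nearer the share of all genes, such as OKF6 replicate 2, the lowest of its group for 9 of 28 members, against 35.1%. Whether members moved together was not tested. SCC25 replicate 3 was the lowest of its 3 libraries for 21 of 28 members, against 34.7% of all genes, and SCC25 -YBX1 replicate 3 for 16 of 28, against 37.1%. SCC15 -YBX1 replicate 2 was the highest of its group for 22 members, against 31.9%, and replicate 1 the lowest for 17, against 42.4%. The median of the members relative to each gene's median over all libraries was -0.82 log2 in SCC15 -YBX1 replicate 1 and -0.16 in replicate 2.

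YBX1 read 6.74, 6.31 and 6.62 log2 CPM in SCC25 +YBX1 and 5.26, 4.70 and 3.65 in SCC25 -YBX1, and 5.11, 5.56 and 6.00 in SCC15 +YBX1 and 3.36, 3.71 and 3.13 in SCC15 -YBX1. Knockdown and untreated libraries of a line did not overlap, and since reads of YBX1 remained in every -YBX1 library the comparison is called a knockdown. Reads at the 3′ end count transcripts and do not show whether a transcript carries a deletion. YBX1 changed by -2.01 ± 0.35 in SCC25 (adjusted p = 0.290) and -2.15 ± 0.35 in SCC15 (adjusted p = 0.326), which did not pass over 12995 genes, and -2.08 ± 0.24 over both lines (adjusted p = 0.0103), which did. Among the untreated lines YBX1 was lower than in OKF6 in SCC25 (log2 change -1.21, adjusted p = 0.0375) and in SCC15 (-2.21, adjusted p = 0.000707).

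No member passed the test after knockdown in either line. In SCC25, 0 of 28 members and 0% of all genes had an adjusted p under 0.05, and at an unadjusted p under 0.05 the members numbered 0 higher and 0 lower, against 1.36% and 1.72% of all genes. In SCC15, 0 members and 0% of genes passed, and at the unadjusted threshold 1 member was higher and 0 lower, against 1.11% and 1.22%. Over both lines 0 members passed, against 0.0077% of genes (YBX1 alone), with 1 member higher and 0 lower at the unadjusted threshold, against 1.14% and 1.02%. With voom on the recovered reads 0 members passed in each of these comparisons.

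With same-numbered libraries paired within each line, a fit chosen after the data were seen, 0 members passed in each comparison in limma. At an unadjusted p under 0.05 the paired fit gave 0 members higher and 0 lower in SCC25, against 2.5% and 3.04% of all genes. In SCC15 it gave 1 higher (SREBF1) and 2 lower (SQLE and ACLY), against 2.14% and 2.11%. Over both lines 1 was higher (SREBF1) and 3 were lower (SQLE, LSS and ACLY), against 2.41% and 2.28%.

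The size of the change was small against that between lines. The median log2 change of members was -0.11 in SCC25, -0.18 in SCC15 and -0.14 over both lines, and the medians of all genes were -0.02, -0.01 and -0.01. These medians moved with single libraries. With a library left out the SCC25 median ran from -0.26 (without SCC25 +YBX1 replicate 3) to -0.03 (without SCC25 +YBX1 replicate 2). It was -0.04 without SCC25 +YBX1 replicate 1 or SCC25 -YBX1 replicate 3 and -0.23 without SCC25 -YBX1 replicate 2. The SCC15 median ran from -0.31 (without SCC15 -YBX1 replicate 2) to -0.02 (without SCC15 -YBX1 replicate 1). It was -0.12 without SCC15 +YBX1 replicate 1 and -0.06 without SCC15 +YBX1 replicate 2 or SCC15 -YBX1 replicate 3. Over both lines it ran from -0.20 (without SCC25 -YBX1 replicate 2) to -0.08 (without SCC25 -YBX1 replicate 3), and it was -0.09 without SCC25 +YBX1 replicate 2 or SCC15 -YBX1 replicate 3.

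In SCC25, 25 of 28 members had a log2 change below 0, against 53.4% of all genes, and 1 (CYP51A1) was lower without overlap (3.76%) and 0 higher (3.56%). In SCC15 the change was below 0 for 18 members, against 51.3%, and 1 (ACLY) was lower without overlap (3.78%) and 2 (CYP51A1 and SREBF1) higher (3.26%). Over both lines 20 were below 0, against 53%. By same-numbered libraries the member median was -0.19, -0.07 and -0.10 in SCC25, with 18, 15 and 18 members below 0, and -0.52, 0.11 and -0.12 in SCC15, with 18, 8 and 20 below 0. The count of 25 in SCC25 did not recur within any single pair, and SCC15 replicate 1 had the lowest median.

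**Figure D4:**
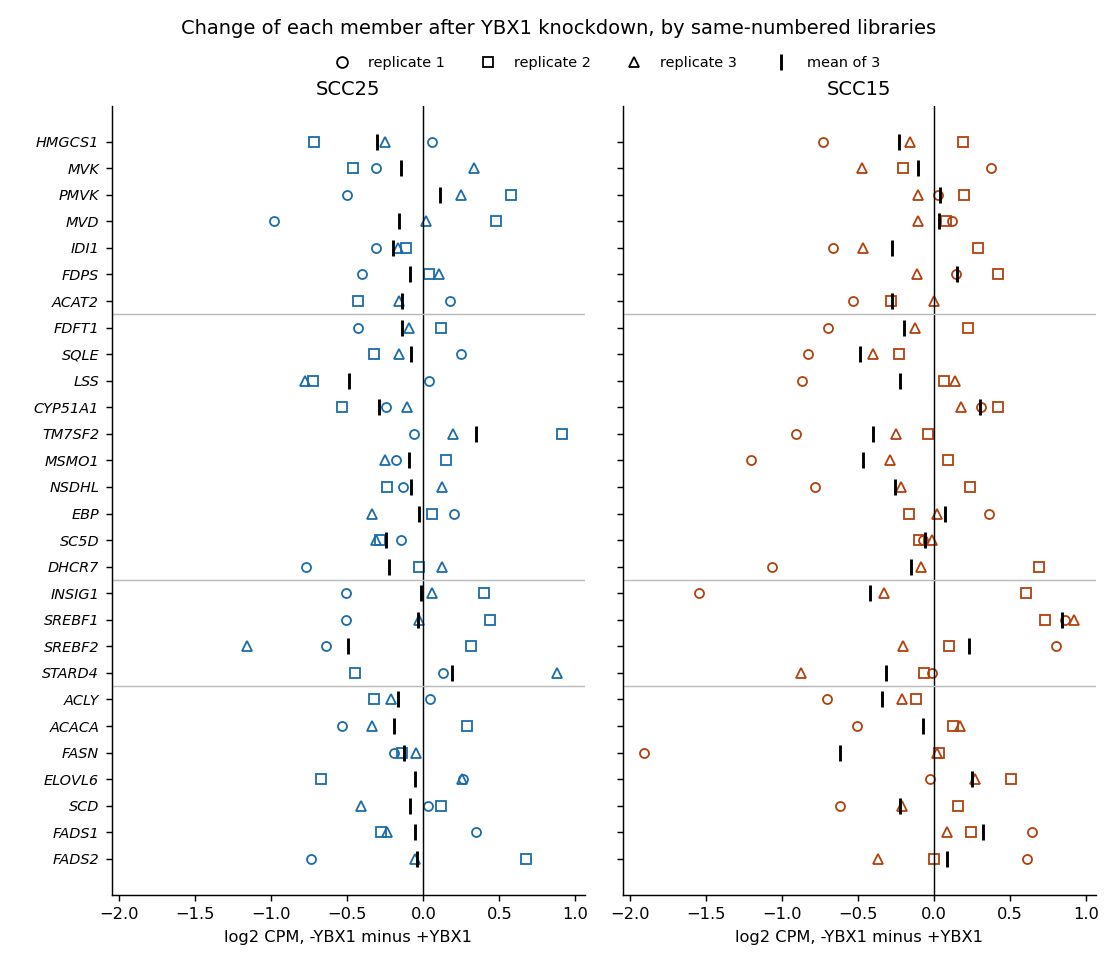
For each member, symbols give the log2 CPM of a -YBX1 library minus that of the same-numbered +YBX1 library (circle, square and triangle for replicates 1, 2 and 3), and the black tick is the mean of 3, in SCC25 and in SCC15. Most members straddle 0, SREBF1 lies above 0 in all 3 pairs of SCC15, and CYP51A1 lies below 0 in SCC25 and above 0 in SCC15.

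SREBF1 gave the largest change of any member in SCC15. It read 3.49, 2.87 and 2.93 log2 CPM in SCC15 +YBX1 and 4.35, 3.60 and 3.85 in SCC15 -YBX1, without overlap, and the pairs differed by 0.86, 0.73 and 0.92. The log2 change was 0.84 ± 0.26 (unadjusted p = 0.00582, adjusted p = 1.00 in limma), with a 95% interval of 0.29 to 1.39, and it was 0.63 without SCC15 -YBX1 replicate 1. In SCC25 the values were 5.95, 5.69 and 5.67 and 5.44, 6.12 and 5.64, and the change was -0.03 ± 0.26 (95% interval -0.59 to 0.52). Over both lines SREBF1 changed by 0.40 ± 0.18 (unadjusted p = 0.0443, adjusted p = 1.00).

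CYP51A1 had opposite signs in the lines. In SCC25 it read 6.33, 6.33 and 6.16 with YBX1 and 6.09, 5.80 and 6.05 without, and in SCC15 5.75, 5.74 and 5.95 and 6.06, 6.16 and 6.12. Neither line overlapped between its groups. The log2 change was -0.29 ± 0.14 in SCC25 (unadjusted p = 0.0625) and 0.30 ± 0.14 in SCC15 (unadjusted p = 0.058), with adjusted p = 1.00 and 1.00.

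The other members with the lowest p were read with their spread. LSS in SCC25 went from 6.24, 6.45 and 6.21 to 6.28, 5.72 and 5.43 log2 CPM (-0.49 ± 0.25, unadjusted p = 0.0709), with overlap through replicate 1. SC5D in SCC25 went from 5.52, 5.43 and 5.21 to 5.37, 5.14 and 4.90 (-0.25 ± 0.18, unadjusted p = 0.191), and each pair was below 0. SREBF2 in SCC25 went from 4.02, 4.39 and 4.05 to 3.38, 4.70 and 2.89 (-0.50 ± 0.39, unadjusted p = 0.221), and the library of SCC25 -YBX1 replicate 2 lay above all others. FASN in SCC15 went from 9.22, 8.36 and 8.10 to 7.31, 8.39 and 8.12 (-0.62 ± 0.30, unadjusted p = 0.0574), with pairs at -1.91, 0.03 and 0.02, and the change was -0.30 without SCC15 -YBX1 replicate 1 and -0.29 without SCC15 +YBX1 replicate 1. MSMO1 in SCC15 went from 5.70, 5.34 and 5.16 to 4.49, 5.43 and 4.86 (-0.47 ± 0.26, unadjusted p = 0.0978), with replicate 1 lowest, and the change was -0.25 without SCC15 -YBX1 replicate 1. Over both lines the lowest p after SREBF1 belonged to LSS (-0.36 ± 0.18, unadjusted p = 0.0639), FASN (-0.37 ± 0.21, unadjusted p = 0.0991) and ACLY (-0.25 ± 0.15, unadjusted p = 0.102), and the adjusted p of all 3 was 1.00.

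The change did not differ between SCC25 and SCC15 for any member at an adjusted p under 0.05 (0 members and 0% of genes in limma). At an unadjusted p under 0.05, 0 members had a higher change in SCC25 than in SCC15 (1.12% of genes) and 2 a lower one (1.15%), namely CYP51A1 with a difference of -0.59 ± 0.21 (unadjusted p = 0.0119) and SREBF1 with -0.87 ± 0.36 (unadjusted p = 0.0313). TM7SF2 had the next lowest p, at 0.75 ± 0.47 (unadjusted p = 0.137), with a change of 0.35 in SCC25 and -0.40 in SCC15, followed by SREBF2 at -0.73 ± 0.55 (unadjusted p = 0.205). In the paired fit the same threshold gave 0 members with a higher change (2.03% of genes) and 2 with a lower one (2.1%), again CYP51A1 and SREBF1.

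In SCC25 all 3 pairs fell on the lower side for 4 of 28 members (IDI1, CYP51A1, SC5D and FASN), that is 14.3% against 11.5% of all genes, and on the higher side for 0 (11% of all genes). In SCC15 all 3 pairs were below 0 for 6 members (ACAT2, SQLE, TM7SF2, SC5D, STARD4 and ACLY), that is 21.4% against 15.9%, and above 0 for 3 (CYP51A1, SREBF1 and FADS1), that is 10.7% against 12.4%. The knockdown comparisons share their +YBX1 libraries with the comparisons of lines.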

How the data were processed

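Libraries for 3′ end RNA sequencing (QuantSeq, NextSeq500) were trimmed with cutadapt, aligned with HISAT2 to hg38 and counted with featureCounts, per the submitters' processing notes, which give no versions. The strand setting of the counting is not given in the sources used here. The authors deposited log2 CPM values per gene after a filter on low counts and a scaling of library sizes, and no raw counts were used. Each deposited log2 value was the log2 of reads plus 0.5, scaled to CPM by an effective library size, and whole reads were recovered for 100% of values within 0.05 of a whole number.

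Groups followed the labels. Linear models with moderated variance and a mean-variance trend were fitted with limma 3.58.1 in R 4.3.3 on all 12995 genes, in 1 fit for the untreated lines and 1 for the knockdown groups, and p-values were adjusted by the Benjamini-Hochberg method across the whole table (threshold 0.05, tests two-sided). Errors are standard errors (SE) of the fit, 95% intervals are unadjusted, and a fold is 2 to the power of the log2 change. Tables were handled in Python 3.11.15 with pandas 2.3.3 and drawn with matplotlib 3.10.9. The scripts were tested on simulated data with 1 spread for all genes. A log2 change of 1 was recovered for 37% to 45% of changed genes between lines. In the knockdown it was 70% in SCC25, 65% in SCC15 and 23% for the difference between lines. A simulated log2 change of 2 was recovered for 100% of changed genes in the knockdown of SCC25 and of SCC15. The real YBX1 changes of -2.01 in SCC25 and -2.15 in SCC15 did not pass. The simulated shares thus do not say how often a real change of a given size would pass. For SCC25 against OKF6, 8.55% of simulated calls were false. Full values were given for the 8 members with the largest called change in each comparison and for INSIG1, SREBF1, SREBF2, HMGCS1, SQLE, FASN and SCD, and in the knockdown for the 4 lowest unadjusted p-values. The members, lists and tests were chosen with earlier results of these data known.

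Same-numbered libraries with and without doxycycline deviated together (Pearson r across 6497 genes of 0.135, 0.470 and 0.425 in SCC25 and 0.498, 0.312 and 0.117 in SCC15), so the numbers were taken to pair the knockdown libraries. Untreated lines were not paired (r from -0.20 to 0.26). The lowest r of each knockdown line lay within that range, and libraries with different numbers were not compared. The pairing of the knockdown libraries is thus an assumption. Intervals cover the spread between libraries, and depth limits the members with few reads.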

Additional observations from a re-analysis of the deposited data

Results flagged for a closer look

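CYP51A1, the lanosterol demethylase, is listed because its change after YBX1 knockdown had opposite signs in the cancer lines in every same-numbered pair of libraries. The pairs differed by -0.24, -0.53 and -0.10 log2 in SCC25 and by 0.31, 0.42 and 0.17 in SCC15. Over all genes, all 3 pairs were below 0 for 11.5% in SCC25 and above 0 for 12.4% in SCC15. The share with opposite signs in every pair was not counted, and a single member is not read as a result. The gene was picked by these same values, so its p-value is not independent of the choice. The difference of the changes was -0.59 (limma, unadjusted p = 0.0119, adjusted p = 1.00), so it did not pass over all genes. Other genes that share the last exonic bases of CYP51A1 on the same strand may contribute reads to it, and their part was not tested.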

How the results depend on the processing

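Over the member counts and medians, the alternatives left the value within the limits set for a move 406 times and moved it 19 times. A count that changed within a set factor was scored as unmoved, and so was each knockdown count, which stayed at 0. The tally is thus no measure of how stable the results were. The median of members for the difference in knockdown change, SCC25 minus SCC15, was -0.06 and ran from -0.17 to 0.18 with a library left out, lying above 0 without SCC15 +YBX1 replicate 3, SCC15 -YBX1 replicate 2, SCC25 +YBX1 replicate 1 or 2, or SCC25 -YBX1 replicate 1 or 3. The members higher in SCC15 than in SCC25 numbered 1 in place of 2 without a variance trend, with genes above the first quartile of mean level only and at an adjusted p under 0.01, and 1 to 2 when each library was left out in turn. The median of members for SCC15 against SCC25 was -0.44 after quantile normalization. The members higher in SCC25 than in OKF6 numbered 1 with only the groups compared and at an adjusted p under 0.01, and 1 to 2 with a library left out. Those lower in SCC25 than in OKF6 numbered 9 at an adjusted p under 0.01 and 9 to 16 with a library left out. The shares of all genes called in these settings are not given here, so the counts are not read against them. The cause of these moves was not tested, apart from the stricter threshold and the smaller sets of libraries themselves.

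Calls held in all 17 alternatives for 10 of 14 members between SCC15 and SCC25, 21 of 24 between SCC15 and OKF6 and 10 of 16 between SCC25 and OKF6. Scaling moved the median of all genes by 0.15 (library medians set equal) and 0.18 (quantile normalization) for SCC15 against SCC25, by 0.16 (medians) for SCC15 against OKF6 and by -0.18 (quantile) for SCC25 against OKF6, where the genes called numbered 2006 higher and 1837 lower in place of 2450 and 1473. With a replicate block the members called were 2 higher and 12 lower for SCC15 against SCC25. They were 2 and 21 for SCC15 against OKF6 and 2 and 14 for SCC25 against OKF6. The numbers were not taken to pair these lines, and the shares of all genes called with this block are not given here. In the knockdown, a replicate block, or a block within each line chosen after seeing the data, left 0 members called in each comparison. The filter on low counts that the authors applied could not be undone and was not varied. Members with few reads, such as STARD4 in SCC15, are limited by depth.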
